A study of Mus musculus with 20 samples.

Results

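The circadian clock genes described here are 10 genes of the mouse molecular clock: Arntl, Clock, Per1, Per2, Per3, Cry1, Nr1d1, Nr1d2, Dbp and Tef. They were taken by gene name from a table of raw read counts with 54532 genes, and all 10 were found. RNA had been sequenced from 20 libraries of C57BL/6 mice of 3 genotypes. The first is Ager-/- (RAGE-/- in the labels, a knockout of Ager, the gene for the receptor RAGE), the second is Ager AHA/AHA (RAGE knock-in in the labels), and the third is wild type (WT). Ager AHA/AHA mice carry point mutations in both alleles, introduced by CRISPR, that were made to disrupt the binding of RAGE to heparan sulfate. Neutrophils (PMN) were leukocytes washed from a dorsal air pouch 4 h after 1 μg of LPS in all genotypes (3 Ager-/-, 3 Ager AHA/AHA and 3 WT libraries), with more than 95% neutrophils by the labels. Lungs were perfused and flash frozen, and their labels give no treatment (4 Ager-/-, 4 Ager AHA/AHA and 3 WT libraries). The time of day at which mice were killed, their age and their sex were not found in the labels or methods, so collection time and genotype cannot be told apart in any comparison that follows.

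The clock is a loop of transcription and repression. ARNTL (also called BMAL1) and CLOCK bind together to E-boxes, with the letters CACGTG, and switch on the Per and Cry genes, whose proteins return to the nucleus and block ARNTL and CLOCK. NR1D1 and NR1D2 (REV-ERB alpha and beta) are nuclear receptors that bind the element AGGTCA and repress Arntl, and DBP and TEF are PAR bZIP activators of the D-box. Transcripts of this loop rise and fall over each day in most tissues, lung included, and Arntl then runs nearly opposite in phase to Nr1d1 and Dbp.

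The motifs through which this loop acts were looked for in the 250 bases before each start site of RefSeq (GRCm38.p6), on both strands. Sequences were found for 14 start sites of 9 members, and none was used for Per2. CACGTG stood before a start site of 3 members (Per1, Cry1 and Tef), that is before 4 of the members' 14 start sites, against 6.02% of all 32851 promoters. The D-box, searched as TTANGTAA, stood before Per3 alone among the members (1 of the 14 start sites), against 2.06% of all promoters. AGGTCA stood before Per1, Nr1d2 and a start site of Clock (3 of the 14), against 14.0% of all promoters. No match of a motif overlapped another. Windows of Nr1d2, Cry1, Per1, Tef and Per3 follow 5′ to 3′ on the strand of the gene, with the motif in capitals. The Clock window and that of the other Tef start site (chr15:81802521-81802576, inside exons of Tef and Gm17597) are not printed. A match says only that the letters are there.
Nr1d2, AGGTCA: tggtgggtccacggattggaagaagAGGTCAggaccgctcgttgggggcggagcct
Cry1, CACGTG: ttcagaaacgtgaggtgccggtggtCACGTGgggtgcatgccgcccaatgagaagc
Per1, CACGTG and AGGTCA (on the other strand, read as TGACCT): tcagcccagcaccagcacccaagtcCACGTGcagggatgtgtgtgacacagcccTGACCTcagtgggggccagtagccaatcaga
Tef, CACGTG: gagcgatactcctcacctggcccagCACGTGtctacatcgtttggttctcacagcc
Per3, TTANGTAA, found 2 times: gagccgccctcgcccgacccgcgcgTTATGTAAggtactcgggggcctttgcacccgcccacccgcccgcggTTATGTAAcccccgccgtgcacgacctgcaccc

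In mm10, the Nr1d2 window lies at chr14:18239153-18239208 (minus strand) and the Cry1 window at chr10:85185084-85185139 (minus strand), both upstream of the gene and in no annotated gene of GENCODE M21. The Per3 window at chr4:151044791-151044895 (minus strand) is upstream of Per3 and inside an intron of Camta1. The Per1 window at chr11:69098758-69098842 and the Tef window at chr15:81811251-81811306 (both plus strand) lie inside introns of those genes, before internal start sites.

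Total counts were 16764589 to 24818703 per library. Ager itself had 473 to 622 counts in Ager-/- lungs, 34769 to 70580 in Ager AHA/AHA lungs and 39913 to 65695 in WT lungs. In neutrophils it had 60 to 101 counts in the libraries labelled Ager-/-, 15 to 44 in Ager AHA/AHA libraries and 15 to 37 in WT libraries. CPM are counts per 1e6 after TMM scaling, edgeR's trimmed mean normalization. All 3 libraries labelled Ager-/- (2.61 to 3.78 CPM) were above all Ager AHA/AHA libraries (0.891 to 1.88 CPM) and all WT libraries (0.927 to 2.40 CPM). Ager-/- lungs also kept 473 to 622 counts of Ager, so the low counts in neutrophils neither bear out the label nor contradict it. The targeted gene thus checks the labels in lung and not in neutrophils, and every neutrophil result for Ager-/- below is that of the libraries labelled Ager-/-. All libraries expressed Y-linked genes. Summed markers of neutrophils were 18989 to 31713 CPM in the neutrophil libraries, and those of alveolar epithelium were 36558 to 48279 CPM in lung. WT neutrophil replicate 2 stood apart with 229 CPM of summed fibroblast markers, against 5.94 to 65.7 CPM in the other 8 neutrophil libraries.

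The clock genes were measured at very different levels within each tissue. The TMM factors over both tissues were 0.335 to 0.421 in WT neutrophils and 2.06 to 2.13 in WT lungs, so this scaling carries much of any difference in RPKM between the tissues, while the order of the genes within a library does not depend on it. Lung held the output arm of the loop at high levels. In WT lungs Tef had 34.4 ± 1.87 RPKM (reads per kilobase and 1e6 effective counts, the total times a TMM factor fitted over both tissues; SD, n = 3), Nr1d2 24.1 ± 1.94, Dbp 20.8 ± 0.715, Per1 16.2 ± 0.329, Nr1d1 10.7 ± 1.02, Per2 9.95 ± 2.21, Per3 7.41 ± 1.03, Cry1 4.96 ± 0.576, Clock 1.40 ± 0.117 and Arntl 0.101 ± 0.0275 RPKM. Of neighbours in that order, Nr1d2 and Dbp did not overlap between libraries, while Nr1d1, Per2 and Per3 had overlapping ranges. Arntl, the activator, was thus the lowest member in every WT lung, and it stayed between 0.0756 and 0.244 RPKM over all 11 lungs, in which Dbp, one of its targets, was at 14.7 to 33.2 RPKM.

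WT neutrophils carried 3 members well above the rest. Per1 was at 39.0 ± 7.66 RPKM, Cry1 at 17.9 ± 1.03 and Per2 at 2.79 ± 0.418 RPKM (SD, n = 3). The other 7 had means of 0.142 (Tef) to 0.649 (Nr1d1) RPKM, and neighbours among them overlapped. Over all 9 neutrophil libraries Arntl had 2 to 30 counts and Dbp 5 to 13 counts. Dbp did not pass edgeR's filter on low counts in neutrophils and was not tested between genotypes there, while the other 9 members did. A level this low is a limit of depth, and it does not show that the gene is silent. In bulk RNA, fewer cells of a type and less RNA per cell cannot be told apart.

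**Figure D1:**
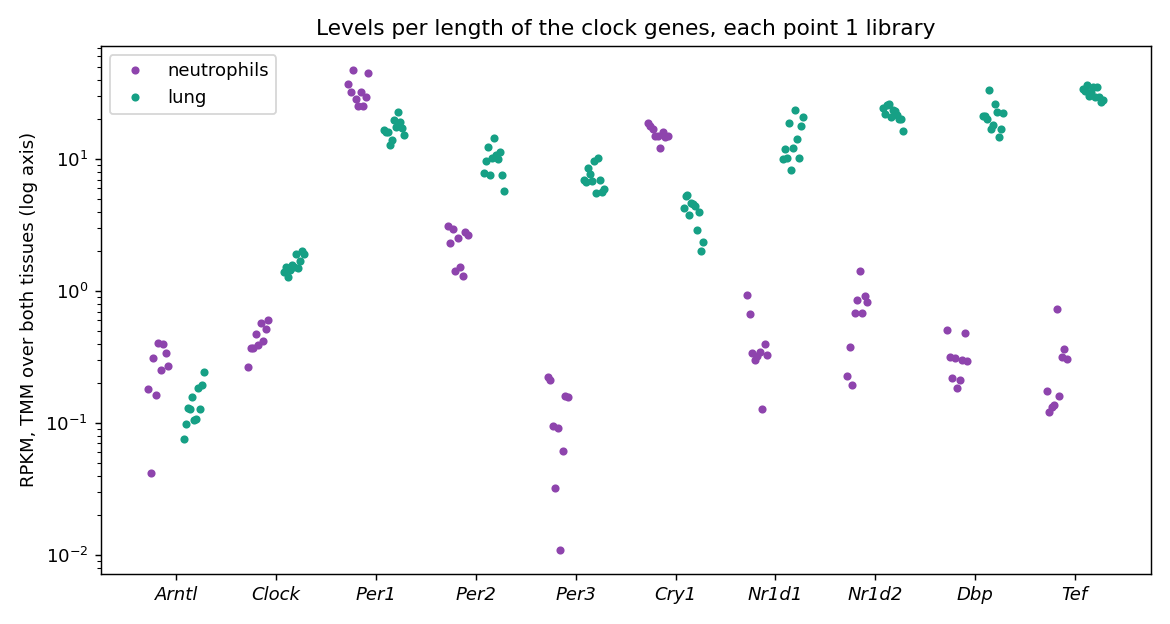
RPKM of the 10 clock genes on a log axis, with 1 point per library, neutrophils (9 libraries) left of lung (11 libraries). RPKM use TMM factors over both tissues. Tef, Nr1d2, Dbp and Per3 lie far lower in neutrophils than in lung, and Per1 and Cry1 lie higher with this scaling but lower with library totals.

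Set against WT lung in a single edgeR fit of all 20 libraries, 9 of the 10 members differed in WT neutrophils at an adjusted p under 0.05, where 83.4% of all 18180 genes tested were called. The 7 members that were lower in neutrophils were lower under every scaling tried. They were Tef at −7.91 on the log2 scale, Nr1d2 at −6.52, Dbp at −5.92, Per3 at −5.42, Nr1d1 at −4.07, Clock at −2.06 and Per2 at −1.83 with TMM. For Cry1 and Per1 the direction followed the scaling. With TMM, Cry1 had a log2 fold change of 1.85 (SE 0.180 and adjusted p of 6.2e-10 from edgeR's quasi-likelihood test), and with library totals, added after seeing the data, −0.67 (adjusted p = 0.00193). Per1, a period gene that is also induced by glucocorticoids, had 1.27 (SE 0.201) with TMM and −1.22 (adjusted p = 1.5e-05) with library totals. On library totals Per1 was at 14.6 ± 4.73 RPKM in WT neutrophils and 33.8 ± 0.545 RPKM in WT lungs, and Cry1 at 6.54 ± 0.487 and 10.4 ± 1.33 RPKM in the same order (SD, n = 3 each). Arntl had 0.86 (SE 0.468, adjusted p = 0.0914) with TMM, was called higher with RLE scaling, with DESeq2 and without WT neutrophil replicate 2 (1.08, 1.07 and 1.28), and was called lower with library totals (−1.61, adjusted p = 0.00335). The median of all genes was −1.24 with TMM, −1.03 with RLE scaling and −3.72 with library totals. Relative to it Cry1, Per1 and Arntl lay high under each of these scalings. Tissue, LPS treatment and handling of the samples cannot be told apart here.

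Between genotypes, Nr1d2, the gene for the repressor REV-ERB beta, was the member called in neutrophils. It had 37, 45 and 35 counts in neutrophils labelled Ager-/- (replicates 1, 4 and 6), 24, 42 and 73 in Ager AHA/AHA neutrophils (replicates 2, 4 and 6), and 8, 13 and 8 in WT neutrophils. All 6 libraries of the mutants were above all 3 WT libraries. The scaled levels were 1.71 ± 0.296 CPM in Ager-/-, 2.08 ± 0.840 CPM in Ager AHA/AHA, with 0.588 ± 0.190 CPM in WT (SD, n = 3 each).

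The log2 fold change of Nr1d2 was 1.53 in neutrophils labelled Ager-/- against WT (SE 0.399, adjusted p = 0.0248 from edgeR) and 1.83 in Ager AHA/AHA neutrophils against WT (SE 0.396, adjusted p = 0.0212). Nr1d2 was thus 1 of 9 members called in Ager-/-, where 10.7% of all 11632 genes tested were called, and 1 of 9 in Ager AHA/AHA, where 3.64% were called. Between neutrophils labelled Ager-/- and Ager AHA/AHA neutrophils its log2 fold change was −0.30 (SE 0.344, adjusted p = 0.809). The call rests on few counts: in Ager AHA/AHA it was lost without WT replicate 1, WT replicate 3 or Ager AHA/AHA replicate 6 (log2 fold changes of 1.77, 1.65 and 1.46, adjusted p of 0.124, 0.0833 and 0.135 from edgeR), and in Ager-/- without WT replicate 1, WT replicate 3 or Ager-/- replicate 4 (1.48, 1.35 and 1.46, adjusted p of 0.0994, 0.0814 and 0.0622). Both calls were also lost with the replicate number as a block (1.01 in Ager-/- and 1.19 in Ager AHA/AHA, adjusted p of 0.420 and 0.549 from edgeR). They were lost likewise with limma on log2(FPKM + 1) (0.47 and 0.63, adjusted p of 0.446 and 0.634) and on log2(FPKM + 0.1) (1.18 and 1.47, adjusted p of 0.309 and 0.418), so the size of the fold depends on the setting. Since Ager did not check the label of the Ager-/- neutrophils, the first of these directions rests on that label. No other gene was used to check it here. The paper reports several genes that changed alike in lungs and neutrophils of Ager-/- mice, and these were not looked at here.

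Against WT, some markers of neutrophils and of other cells were called in the same libraries. Beside them, 10.7% of all genes tested were called in Ager-/- and 3.64% in Ager AHA/AHA. Sums of neutrophil, macrophage and dendritic cell markers in Ager AHA/AHA overlapped those of WT. Summed neutrophil markers were 19289 to 20018 CPM in the libraries labelled Ager-/-, 18989 to 27331 CPM in Ager AHA/AHA, with 23010 to 31713 CPM in WT, and 1 of the 6 was called lower in Ager-/- and 0 in Ager AHA/AHA by edgeR. Of 4 Y-linked genes 2, Ddx3y and Eif2s3y, were called lower in the libraries labelled Ager-/- than in WT and 0 in Ager AHA/AHA, with Ddx3y at 70.8 to 137, 164 to 197 and 190 to 203 CPM in Ager-/-, Ager AHA/AHA and WT. Of 2 endothelial markers tested 1 was lower in Ager-/-. Of 6 macrophage markers 3 were higher in each mutant than in WT (C1qa, C1qb and C1qc, the chains of complement C1q), with sums of all 6 at 263 to 287 CPM in Ager-/-, 232 to 261 CPM in Ager AHA/AHA, with 200 to 246 CPM in WT. The macrophage markers Adgre1 and Csf1r overlapped between the genotypes. Adgre1 was at 49.5 to 67.5, 54.6 to 64.8 and 59.5 to 78.7 CPM in the same order. Csf1r was at 94.1 to 116, 101 to 114 and 98.1 to 129 CPM. Of 6 T cell markers 4 were higher in Ager-/- and 1 in Ager AHA/AHA, with sums of 21.7 to 41.9, 14.5 to 25.4 and 9.45 to 11.7 CPM in Ager-/-, Ager AHA/AHA and WT. Of 4 NK cell markers 1 was higher in Ager-/- and 0 in Ager AHA/AHA, with sums of 31.9 to 75.6, 38.3 to 59.7 and 25.8 to 35.2 CPM in the same order. Of 4 dendritic cell markers 1 was higher in each mutant, with sums of 12.4 to 19.3, 10.3 to 19.9 and 8.54 to 11.5 CPM in the same order. B cell markers summed to at most 0.374 CPM in any neutrophil library. The part of other cells in the difference of Nr1d2 was not tested.

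The other repressor of the pair, Nr1d1 (REV-ERB alpha), had 4, 11 and 8 counts in neutrophils labelled Ager-/-, 6, 9 and 10 in Ager AHA/AHA neutrophils and 19, 13 and 8 in WT neutrophils. Its log2 fold changes against WT were −1.25 in Ager-/- (SE 0.556, adjusted p = 0.137 from edgeR) and −1.07 in Ager AHA/AHA (SE 0.551, adjusted p = 0.269), so Nr1d1 did not pass the test, and its estimates had the opposite sign to those of Nr1d2. Nr1d1 shares 263 of its 3077 exon bases with Thra on the other strand, and the labels and methods do not state the strand setting of the counting. Thra had at most 22 counts in any neutrophil library.

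**Figure D2:**
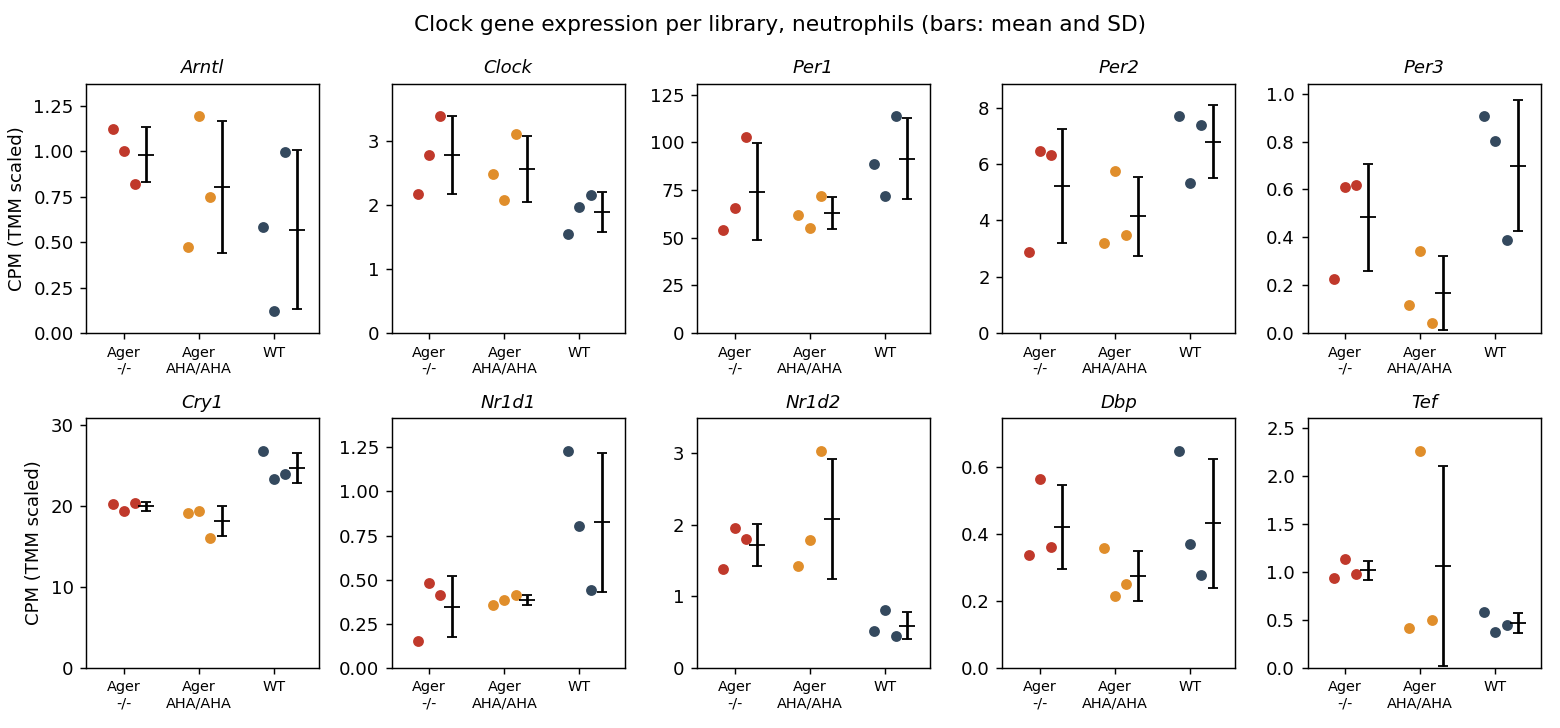
CPM of each clock gene in 9 neutrophil libraries, with a panel per gene, libraries labelled Ager-/- left of Ager AHA/AHA and WT, points for libraries and bars for the mean and SD (n = 3). Nr1d2 is at 1.38 to 3.03 CPM in the mutants and 0.444 to 0.803 CPM in WT.

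The repressor genes that neutrophils transcribed strongly did not pass the test. Cry1, whose protein is the strongest inhibitor of ARNTL and CLOCK, was at 19.9 ± 0.530 CPM in libraries labelled Ager-/-, 18.2 ± 1.87 CPM in Ager AHA/AHA, with 24.7 ± 1.84 CPM in WT neutrophils (SD, n = 3 each). Every mutant library was under every WT library, and yet the log2 fold changes of −0.31 (SE 0.165) in Ager-/- and −0.44 (SE 0.165) in Ager AHA/AHA had adjusted p of 0.210 and 0.131 from edgeR. Under library totals in place of TMM, which was chosen after seeing the data, the Ager-/- estimate was 0.09 for Cry1 and 0.07 for Per1, so their signs follow the scaling. Per1 was at 54.0 to 103 CPM in Ager-/-, 55.2 to 72.0 CPM in Ager AHA/AHA, with 71.7 to 114 CPM in WT neutrophils, with overlap (log2 fold changes of −0.30 and −0.54, adjusted p = 0.379 and 0.179). Per2 was at 2.88 to 6.47, 3.21 to 5.76 and 5.31 to 7.70 CPM in the same order (−0.39 and −0.70, adjusted p = 0.395 and 0.186).

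The activators and the scarce members gave wide errors. Clock, the partner of ARNTL, had 58, 64 and 66 counts in neutrophils labelled Ager-/-, 42, 49 and 75 in Ager AHA/AHA neutrophils and 24, 32 and 39 in WT neutrophils (log2 fold changes of 0.54 and 0.43, adjusted p = 0.213 and 0.402 from edgeR). Arntl had 30, 23 and 16 counts in Ager-/-, 8, 28 and 18 in Ager AHA/AHA, with 9, 2 and 18 in WT, and the groups overlapped (0.77 and 0.50, adjusted p = 0.339 and 0.627). Tef had 25, 26 and 19 counts in neutrophils labelled Ager-/-, 7, 53 and 12 in Ager AHA/AHA neutrophils and 9, 6 and 8 in WT neutrophils. The libraries labelled Ager-/- were above the WT ones, while 1 Ager AHA/AHA library with 53 counts carried most of that group's mean (log2 fold changes of 1.12 and 1.21, adjusted p = 0.199 and 0.236). Per3 had 6, 14 and 12 counts in Ager-/-, 2, 8 and 1 in Ager AHA/AHA, with 14, 13 and 7 in WT, with log2 fold changes of −0.54 (adjusted p = 0.569) and −1.99 (adjusted p = 0.109). Dbp had 9, 13 and 7, then 6, 5 and 6, then 10, 6 and 5 counts in the same order of genotypes.

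Over the 9 members tested in neutrophils, the median log2 fold change was −0.30 in those labelled Ager-/- and −0.44 in Ager AHA/AHA against WT, beside 0.01 and 0.02 over all genes tested. At an unadjusted p under 0.05 there were 2 of the 9 members in Ager-/- and 5 in Ager AHA/AHA, where 30.5% and 21.5% of all genes tested had such a p. Both comparisons share the WT libraries. Between neutrophils labelled Ager-/- and Ager AHA/AHA neutrophils 0 of 9 members were called by edgeR, where 0.533% of all genes were called. At an unadjusted p under 0.05 there were 0 members, beside 9.84% of all genes tested. DESeq2 called 0 members and 139 of 11093 genes. Library totals in place of TMM moved the median of all genes to 0.40 in Ager-/- and 0.16 in Ager AHA/AHA against WT, a shift that bears on every small fold change in neutrophils.

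In lung, Cry1 was the member called. It had 358, 551, 303 and 331 counts in Ager-/- lungs (replicates 1, 2, 4 and 5), 577, 700, 616 and 759 in Ager AHA/AHA lungs and 731, 713 and 782 in WT lungs. At 20.05 ± 6.00 CPM (SD, n = 4) in Ager-/-, 30.9 ± 2.85 CPM (n = 4) in Ager AHA/AHA, with 35.2 ± 4.03 CPM (n = 3) in WT, all 4 Ager-/- libraries were under all 3 WT libraries. The highest, replicate 2 at 28.2 CPM, was above the lowest Ager AHA/AHA library at 26.8 CPM.

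The log2 fold change of Cry1 in Ager-/- lungs was −0.81 relative to WT (SE 0.180, adjusted p = 0.0258 from edgeR). Cry1 was thus 1 of 10 members called, where 3.1% of all 17458 genes tested were called. Against Ager AHA/AHA lungs it was −0.62 (SE 0.169, adjusted p = 0.0617). There 0 of 10 members were called by edgeR, where 3.16% of all genes were called. At an unadjusted p under 0.05 there were 3 members, beside 13.7% of all genes tested. DESeq2 called 1 member, Cry1, and 923 of 18518 genes. The Cry1 difference from Ager AHA/AHA lungs passed at an adjusted p of 0.0131 with DESeq2, of 0.0385 with no filter on low counts and of 0.00567 without Ager-/- replicate 2. The call against WT sits near the threshold: leaving out WT replicate 1, 2 or 3, or Ager-/- replicate 1, 4 or 5, gave adjusted p of 0.0520, 0.0791, 0.104, 0.0521, 0.0528 and 0.0809, with log2 fold changes of −0.90 to −0.68. The call was also lost with the replicate number as a block (−0.65, adjusted p = 0.0664 from edgeR) and with limma on log2(FPKM + 1) and on log2(FPKM + 0.1) (−0.63 and −0.79, adjusted p of 0.414 and 0.264). Among the libraries of the first FPKM set alone (2 of each genotype; the sets are those of the authors' FPKM scaling) it was −0.46 (adjusted p = 0.338).

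Some T cell and NK cell markers were called in Ager-/- lungs against WT, where 3.1% of all genes tested were called. Of 4 B cell markers 0 were called. Of 6 T cell markers 3 were lower in Ager-/- lungs than in WT lungs, with sums of 30.0 to 42.0 CPM in Ager-/-, 42.3 to 50.1 CPM in Ager AHA/AHA, with 50.5 to 53.3 CPM in WT. Of 4 NK cell markers 2 were lower, with sums of 15.8 to 23.4, 28.5 to 46.4 and 40.9 to 54.0 CPM in the same order. The part of lymphocytes in the difference of Cry1 was not tested. Of 4 endothelial and 5 fibroblast markers, 0 were called in Ager-/- lungs against WT by edgeR, and of 5 alveolar epithelium markers 1, Aqp5, was higher (701 to 801 CPM in Ager-/- lungs, 398 to 564 CPM in Ager AHA/AHA lungs and 371 to 454 CPM in WT lungs).

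**Figure D3:**
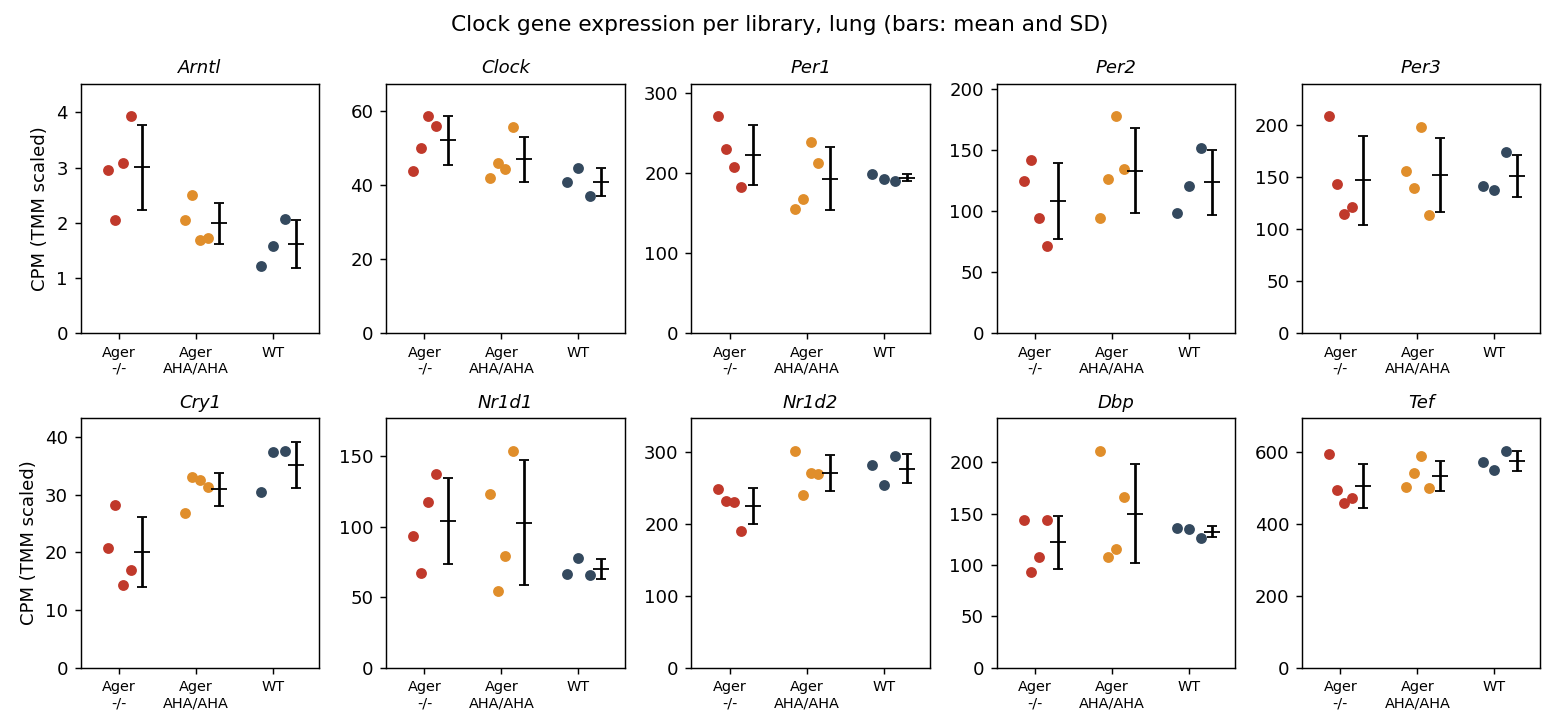
CPM of each clock gene in 11 lung libraries, with a panel per gene, Ager-/- (n = 4) left of Ager AHA/AHA (n = 4) and WT (n = 3), points for libraries and bars for the mean and SD. Cry1 is at 14.4 to 28.2 CPM in Ager-/- and 30.5 to 37.6 CPM in WT, and Nr1d1 and Dbp spread widely within the mutants.

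The activators had higher estimates in Ager-/- lungs without passing the test. Arntl had 51, 40, 65 and 77 counts in Ager-/- lungs, 44, 53, 32 and 42 in Ager AHA/AHA lungs and 29, 30 and 43 in WT lungs. Ager-/- replicate 2 at 2.04 CPM lay just under the highest WT library at 2.07 CPM, and the other 3 lay above all WT libraries. Set against WT, the Ager-/- lungs gave 0.90 on the log2 scale (SE 0.295, and edgeR's adjusted p was 0.128), and set against Ager AHA/AHA they gave 0.59 (SE 0.266, adjusted p = 0.332). Clock was at 43.9 to 58.6 CPM in Ager-/-, 41.9 to 55.8 CPM in Ager AHA/AHA, with 37.2 to 44.6 CPM in WT lungs (0.35 in Ager-/- against WT, SE 0.123, adjusted p = 0.151).

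Nr1d2 had 249, 231, 230 and 190 CPM in Ager-/- lungs, 301, 241, 271 and 270 CPM in Ager AHA/AHA lungs, and 282, 254 and 295 CPM in WT lungs. All Ager-/- libraries were under all WT libraries by a small margin, and the log2 fold change of −0.30 (SE 0.111) had an adjusted p of 0.178 from edgeR. Nr1d1 spread more within genotypes than between them. It had 1616, 1320, 2472 and 2690 counts in Ager-/- lungs, 2660, 1158, 1499 and 3725 in Ager AHA/AHA lungs and 1585, 1488 and 1366 in WT lungs. The highest Ager AHA/AHA lung was at 154 CPM and the lowest at 54.7 CPM, while WT lungs stayed at 65.6 to 78.1 CPM, so that the log2 fold changes of 0.57 and 0.55 in Ager-/- and Ager AHA/AHA had SEs of 0.342 each. The spread of Nr1d1 within genotypes (SD of 0.49 on log2 CPM) was at percentile 83.4 among all genes tested in lung, where the median gene had 0.22. Thra, which overlaps Nr1d1 on the other strand, had 1163 to 2068 counts in lung. The Ager AHA/AHA lung with the most Nr1d1, replicate 4, also had 338 CPM of summed neutrophil markers, the highest of the 11 lungs, and the part of these cells was not tested.

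The PAR bZIP genes and the period genes overlapped between the genotypes in lung. Dbp was at 144, 93.7, 107 and 144 CPM in Ager-/-, at 211, 108, 115 and 166 CPM in Ager AHA/AHA and at 136, 135 and 126 CPM in WT lungs, so the high libraries were Ager AHA/AHA replicates 1 and 4. These were also the high Ager AHA/AHA libraries for Nr1d1. Dbp shares 539 of its 2993 exon bases with Sphk2 on the other strand, which had 569 to 812 counts in lung and up to 526 in neutrophils. Tef was at 457 to 593 CPM in Ager-/-, 500.5 to 588 CPM in Ager AHA/AHA, with 548 to 603 CPM in WT lungs. Its log2 fold change in Ager-/- was −0.19 relative to WT (SE 0.111, adjusted p = 0.442 from edgeR). Per1 was at 182 to 271, 154 to 238 and 190 to 198 CPM in the same order, Per2 at 71.3 to 142, 94.3 to 178 and 98.4 to 152 CPM, and Per3 at 114 to 209, 114 to 198 and 137 to 174 CPM. The log2 fold changes of the 3 Per genes against WT lay between −0.19 and 0.20 in Ager-/- and between −0.01 and 0.11 in Ager AHA/AHA.

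Over the 10 members in lung the median log2 fold change was −0.08 in Ager-/- and 0.06 in Ager AHA/AHA against WT, beside 0.01 in each over all genes tested. In Ager AHA/AHA lungs against WT, 0 of 10 members were called by edgeR, where 0.172% of all genes were called. At an unadjusted p under 0.05 there were 0 members, beside 4.63% of all genes tested. DESeq2 called 0 members and 47 of 29064 genes. In Ager-/- against WT, 4 members had an unadjusted p under 0.05 (Arntl and Clock with higher estimates, Cry1 and Nr1d2 with lower ones), where 16.3% of all genes tested had such a p.

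**Figure D4:**
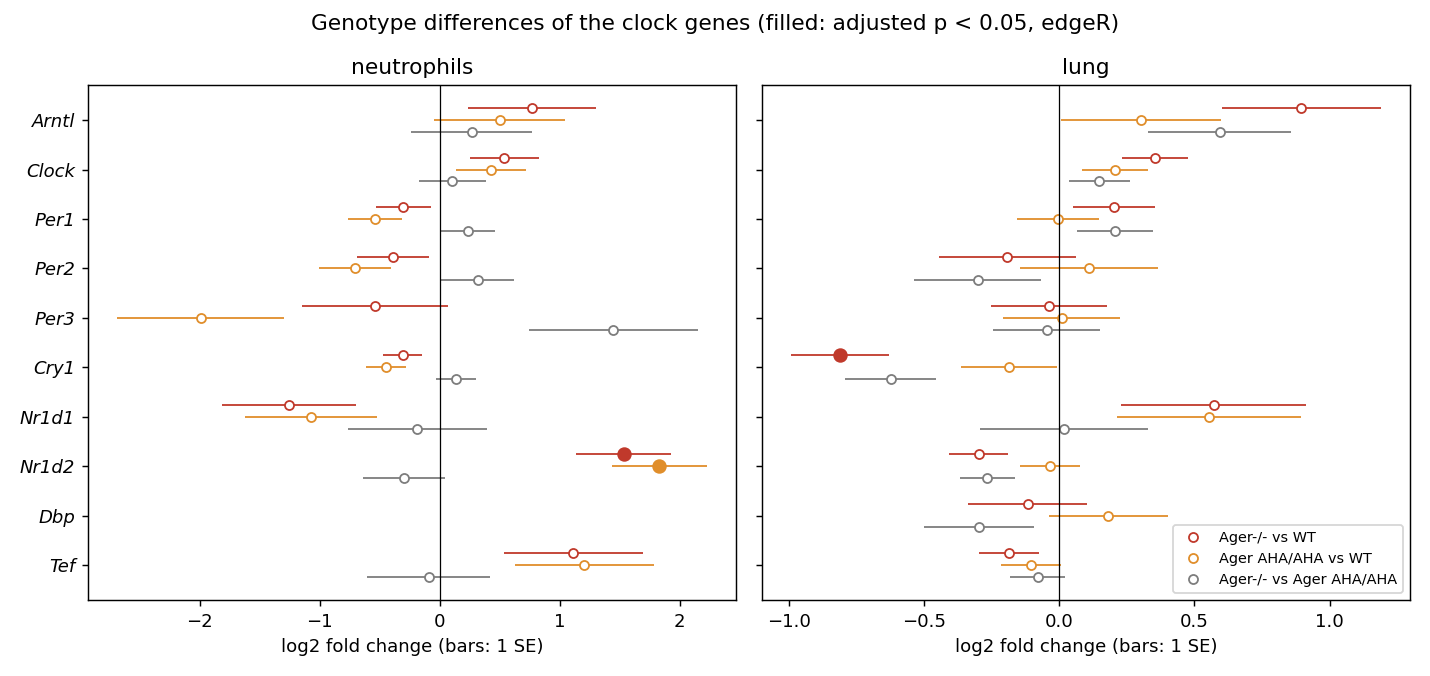
Log2 fold changes of the clock genes with bars of 1 SE, in neutrophils (left) and lung (right), for Ager-/- against WT, Ager AHA/AHA against WT and Ager-/- against Ager AHA/AHA. Filled points passed an adjusted p under 0.05 in edgeR (Nr1d2 in neutrophils, Cry1 in lung), and Dbp was not tested in neutrophils.

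The difference of Nr1d2 in neutrophils differed from that in lung. In the fit of all 20 libraries its effect in neutrophils labelled Ager-/- minus that in Ager-/- lungs was 1.92 (SE 0.341, adjusted p = 0.00135 from edgeR), and its Ager AHA/AHA effect in neutrophils minus that in lung was 1.97 (SE 0.336, adjusted p = 0.00529). Nr1d2 was 1 of 10 members called in each, where 9.13% and 1.46% of all genes were called. Each call held in 26 of 29 alternatives, among them library totals, the replicate block and the fits that left out 1 library. It was lost with limma on log2(FPKM + 1) (0.72 in Ager-/- and 0.63 in Ager AHA/AHA), with limma on log2(FPKM + 0.1) (1.45 and 1.47) and in the first FPKM set alone (1.57 and 1.36). The fit of all 20 libraries gives each gene 1 estimate of spread over both tissues. Within genotypes, the SD of Nr1d2 on log2 CPM was 0.40 in neutrophils and 0.14 in lung. Its SEs here were below the 0.399 and 0.396 of the neutrophil fit. Holding in these alternatives thus does not make the neutrophil difference firmer. The effect of Ager-/- on Cry1 in neutrophils minus that in lung was 0.59 (SE 0.241, adjusted p = 0.130). The median of all genes was 0.15 and 0.11 in these differences, −0.02 and 0.02 with RLE scaling, and 0.40 and 0.10 with library totals.

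The libraries also fall into scaling sets. The authors' FPKM imply a divisor for each library, in 1e6 counts, and its ratio to the library's median-of-ratios size factor was 22.4 to 22.7 in 12 libraries (the first set, with 6 of each tissue) and 16.7 to 17.8 in the other 8. Neither labels nor methods state why. Between the sets, allowing for genotype, 0 members were called in either tissue, where 0.0172% of all genes were called in neutrophils and 0.00573% in lung. At an unadjusted p under 0.05 there was 1 member in neutrophils, Per1, with a log2 difference of 0.53 between the second and the first set (SE 0.151, adjusted p = 0.900), and 0 in lung. All genes with such a p were 583 of 11632 in neutrophils and 586 of 17458 in lung. Both calls of Nr1d2 and that of Cry1 held with the set as a covariate. Within the first set alone, Nr1d2 had log2 fold changes of 1.33 (adjusted p = 0.163) in neutrophils labelled Ager-/- and 1.29 (adjusted p = 0.381) in Ager AHA/AHA neutrophils, from 2 libraries of each genotype.

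Genes around the clock were also taken from lists, which overlap. The list of the glucocorticoid response includes the member Per1, and it shares Klf9 and Tsc22d3 with the list of rhythmic genes. Of 12 wider clock genes 11 were tested in lung, and 1 was called in Ager-/- against WT, where 3.1% of all genes were called. This was Hlf, the third PAR bZIP factor beside Dbp and Tef, which was lower with a log2 fold change of −0.75 (SE 0.179 and adjusted p of 0.0364 from edgeR), at 24.9 to 41.9 CPM in Ager-/- lungs and 47.3 to 70.6 CPM in WT lungs. The Hlf call was lost in 13 of 23 alternatives, and over all of them its log2 fold change was −0.89 to −0.54. In Ager AHA/AHA lungs, 0 of the 11 were called, where 0.172% of all genes were called. Of 10 genes for turnover and modification of clock proteins, 8 genes that are rhythmic in many tissues and 8 genes of the glucocorticoid response, 0 were called in either mutant in lung.

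In neutrophils 7 of the 12 wider clock genes were tested, and the counts of called genes that follow stand beside 10.7% of all genes called in Ager-/- and 3.64% in Ager AHA/AHA. In neutrophils labelled Ager-/- against WT, Rora, an activator that competes with REV-ERB at the same element, was higher with a log2 fold change of 1.74 (SE 0.425 and adjusted p of 0.0210 from edgeR), at 2.67 to 8.34 CPM against 1.10 to 1.94 CPM in WT. Nfil3, a D-box repressor that was the most abundant of these genes in neutrophils, was lower with −0.64 (SE 0.198, adjusted p = 0.0455), at 236 to 377 CPM against 405 to 558 CPM in WT. Summed T cell markers were 21.7 to 41.9 CPM in the libraries labelled Ager-/- and 9.45 to 11.7 CPM in WT. Their part in the difference of Rora was not tested. Among the turnover genes Prkaa1, a subunit of AMPK, was lower in Ager-/- at −0.65 (SE 0.169, adjusted p = 0.0246 from edgeR). Of 8 glucocorticoid response genes 2 were lower in Ager-/- (Dusp1 at −0.66 and Sgk1 at −0.56) and 1 in Ager AHA/AHA (Sgk1 at −0.79). Of 7 rhythmic genes tested Herpud1 and Por were lower in both mutants, at −0.69 and −0.76 in Ager-/- and at −1.10 and −0.87 in Ager AHA/AHA. These calls were less stable than their directions. Over 21 alternatives in Ager-/-, the call of Nfil3 was lost in 15, that of Sgk1 in 14, those of Dusp1, Herpud1 and Por in 11 each, that of Prkaa1 in 10 and that of Rora in 5, and in Ager AHA/AHA that of Por was lost in 11, that of Sgk1 in 8 and that of Herpud1 in 6, with 0 reversals. Between the mutants 0 genes of these lists were called in either tissue.

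Whether Arntl ran against its partners over libraries was tested for the 9 other members in each tissue, 18 relations in all. By a permutation test with 100000 draws in lung (11 libraries) and an exact permutation test in neutrophils (9 libraries), 0 relations passed after adjustment over the 18. In lung, Arntl and Cry1 had a Pearson r of −0.77 (two-sided permutation p = 0.00534, adjusted p = 0.0961) and a Spearman rho of −0.55 (p = 0.0871, adjusted p = 0.523). For Arntl and Nr1d2 in lung, r was −0.72 (permutation p = 0.0118, adjusted p = 0.106) and rho was −0.65 (p = 0.0331, adjusted p = 0.298). With each genotype centred on its mean, the values of r were −0.36 and −0.37, so much of both relations lay between genotypes. Without the 2 libraries farthest from the median of Arntl (Ager-/- replicate 5 and WT replicate 1), r was −0.79 for Cry1 and −0.47 for Nr1d2. Within the first FPKM set (6 lungs), r was −0.59 and −0.43. At an unadjusted p under 0.05 there were 2 values of r and 1 of rho in lung, and 0 of r and 1 of rho in neutrophils. For Arntl and Dbp in lung r was −0.09 and rho −0.13 (permutation p = 0.783 and 0.711), and for Arntl and Nr1d1 r was 0.37 and rho 0.21 (p = 0.260 and 0.538). In neutrophils the strongest value was for Tef, with r of 0.65 (exact permutation p = 0.0604, adjusted p = 0.362) and rho of 0.82 (p = 0.0108, adjusted p = 0.194). With genotypes centred, the strongest value in lung was for Per1, with r of −0.56 (permutation p = 0.0769) and rho of −0.70 (p = 0.0201, adjusted p = 0.280). Tef in neutrophils then had r of 0.49 (exact permutation p = 0.177) and rho of 0.73 (p = 0.0311, adjusted p = 0.280).

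**Figure D5:**
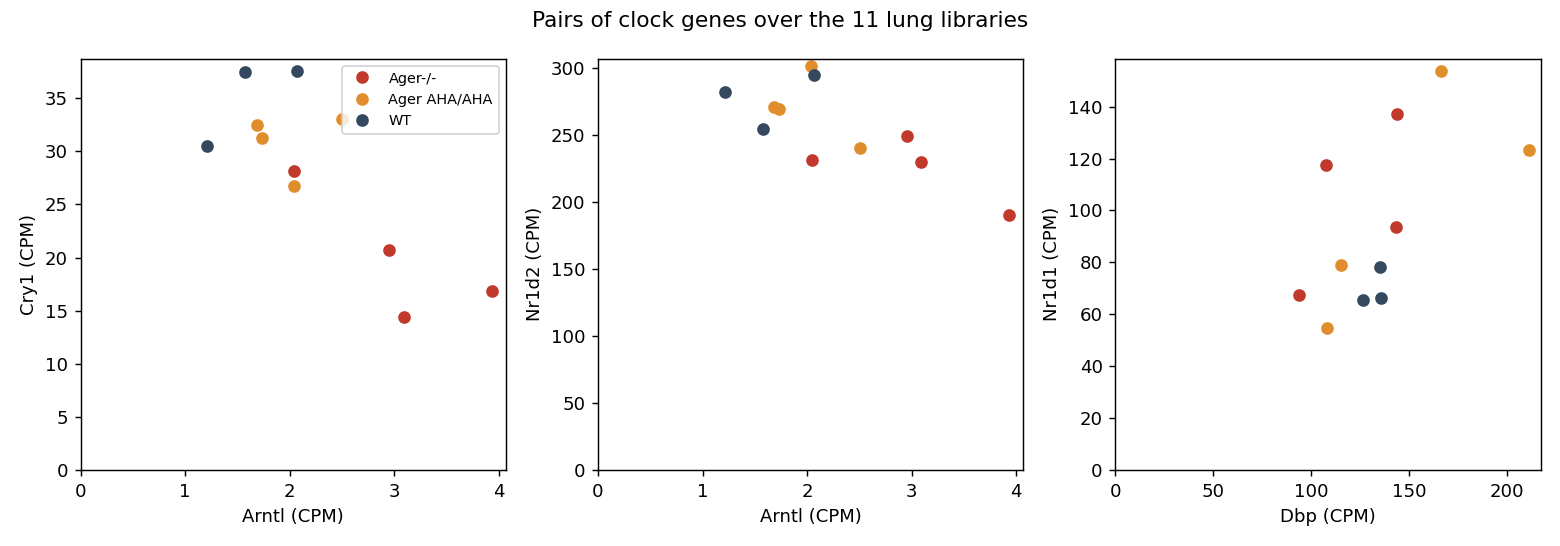
CPM of pairs of clock genes over 11 lung libraries, coloured by genotype: Arntl with Cry1, Arntl with Nr1d2, and Dbp with Nr1d1. Of the 4 Ager-/- lungs 3 lie above all other libraries in Arntl and under all others in Cry1, while replicate 2 (2.04 CPM of Arntl and 28.2 CPM of Cry1) lies among the other genotypes, with r of −0.77 over all libraries and −0.36 within genotypes.

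Across all genes tested in lung, those most like Dbp over the 11 libraries, by Pearson r on log2 CPM and as a description, were Bhlhe41 (r = 0.91), Alox5 (0.87), Syt15 (0.87), Ifrd2 (0.87) and Lcp2 (0.84). Bhlhe41 encodes DEC2, a repressor of E-box genes and itself part of the wider clock list. The member most like Dbp was Nr1d1 (r = 0.61, rank 330 of 17457). The genes most opposite to Dbp were Gm5148 (−0.91), Zfp954 (−0.91) and Tmem183a (−0.86). For Arntl in lung the most alike were Ccdc136 (0.93), Hs3st3b1 (0.91), S100a3 (0.90), Calca (0.90) and Wnk4 (0.88), and the most opposite were Bche (−0.95), Nt5dc2 (−0.93) and Ccbe1 (−0.93). Hlf (−0.86) and Rora (−0.82) of the wider clock were also near that end. In neutrophils, where Arntl had few counts, the most alike were Mtap (0.96), 9430015G10Rik (0.95), Zxdc (0.95), Rmnd5b (0.94) and Hdac7 (0.94), and the most opposite were Aoah (−0.90), Mbd5 (−0.88) and Gm44851 (−0.88). Such values share libraries, depth and genotype.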

How the data were processed

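Counts per gene were deposited by the authors, made with CASAVA, fastp, STAR on mm10 and featureCounts, with versions not given in the sources used here. The authors also deposited FPKM, used here only for an alternative and for the scaling sets, and gene lengths (another column of the deposited table), used here for RPKM. The authors' own tables of fold changes and p-values hold their comparisons and were not used.

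Each tissue was fitted with its 3 genotypes in edgeR 4.0.16 (TMM, default filter, robust quasi-likelihood test) in R 4.3.3, with Benjamini-Hochberg adjustment over all genes tested and a threshold of 0.05. A fit of all 20 libraries, with TMM factors over both tissues, gave the differences between tissues and the scaling of RPKM. The scripts were tested on simulated data. The alternatives used DESeq2 1.42.0 and limma 3.58.1, and are in the closing section with some added after the data were seen, as marked there or beside the result. Python 3.11.15 with matplotlib 3.10.9 drew the plots.

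The members and lists were chosen with earlier results of these data known. Every member is named, with the list genes called in a comparison of genotypes (1 result is not reported here), and the 5 most and 3 least similar genes to Dbp and Arntl. Relations used log2(CPM + 0.05). Depth was 16764589 to 24818703 counts per library. By the study's methods the libraries of a group come from different mice. No 2 libraries of the same group agreed within sampling noise, and pairs across groups were not compared. The genotypes share replicate numbers in the labels, without a statement of their meaning. Deviations of the 3 same-numbered pairs of Ager-/- and Ager AHA/AHA lungs correlated at 0.117 to 0.167. Their 13 pairs of different numbers correlated at −0.276 to 0.150, so the ranges overlapped and do not settle whether the numbers pair mice. The values in the Results come from the unpaired fit. The replicate block, an alternative, changed no call of a member in that comparison. Every other comparison had a pair under 0.1 or fewer than 3 pairs.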

Additional observations from a re-analysis of the deposited data

Results flagged for a closer look

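The effect of Ager AHA/AHA on Nr1d2 differed between tissues, with 1.97 on the log2 scale in neutrophils minus lung (adjusted p = 0.00529 from the interaction term in edgeR). The effect of Ager-/- on Nr1d2 differed likewise, with 1.92 (adjusted p = 0.00135). Both share the WT libraries, and the label of the Ager-/- neutrophils could not be checked with Ager itself. Both also rest on 1 estimate of spread over the tissues, while Nr1d2 spread more in neutrophils than in lung. No library of a lung group of 4 stood far enough from its others, for any member, to be singled out by Dixon's test, and groups of 3 were not tested.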

How the results depend on the processing

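Counts of called members moved with the processing as follows. The 1 call (Nr1d2) in neutrophils labelled Ager-/- against WT, and that in neutrophils of Ager AHA/AHA against WT, each became 0 with limma on log2(FPKM + 1), with limma on log2(FPKM + 0.1), with the replicate block and in the first FPKM set alone (added after seeing the data), and leaving out 1 library gave 0 to 1 in each. With the replicate block Nr1d2 had log2 fold changes of 1.01 (adjusted p = 0.420 from edgeR) in Ager-/- and 1.19 (0.549) in Ager AHA/AHA, and all genes called fell to 52 from 1240 and to 19 from 423. Only 1 number is shared by each mutant and WT there, and what the numbers mark was not stated. The 1 call (Cry1) in lung of Ager-/- against WT became 0 with both limma settings, with a fold threshold of 1 on the log2 scale, with the replicate block (−0.65, adjusted p = 0.0664) and in the first FPKM set, and leaving out 1 library gave 0 to 1. Between Ager-/- and Ager AHA/AHA lungs, 0 calls became 1 with DESeq2 and with no filter (Cry1), and 1 in the first FPKM set (Per1, 0.65, adjusted p = 0.0364), and leaving out 1 library gave 0 to 1. All genes called there were 923 of 18518, 697 of 31434 and 144 of 17269 in these settings, beside 551 of 17458 in the main fit. For the differences between tissues, the 1 call became 2 with DESeq2, 3 with no filter and 3 with library totals for Ager-/-, and 2 with DESeq2 and 4 with no filter for Ager AHA/AHA, and in each 0 with both limma settings and in the first FPKM set (all but DESeq2 and the filter added after seeing the data), and leaving out 1 library gave 1 to 2 in each. All genes called for the Ager-/- difference were 2526 of 15813 with DESeq2, 1823 of 33277 with no filter and 2769 of 18180 with library totals. The main fit called 1659 of 18180. For the Ager AHA/AHA difference they were 1033 of 13944 with DESeq2 and 726 of 33277 with no filter, beside 266 of 18180 in the main fit. Leaving out 1 library gave 9 to 10 calls for WT neutrophils against WT lung. The causes were not tested. With library totals, WT neutrophils against WT lung turned for Cry1 (−0.67), Per1 (−1.22) and Arntl (−1.61), since that scaling lowers every gene in neutrophils. No call between genotypes turned. The other 2 genotype comparisons kept 0 calls in every alternative. Over the alternatives Nr1d2 had log2 fold changes of 0.47 to 1.93 in Ager-/- and 0.63 to 2.11 in Ager AHA/AHA neutrophils, and Cry1 had −1.02 to −0.46 in Ager-/- lungs. A sex covariate was not run, since every library expressed Y-linked genes. Depth limits Arntl, Per3, Nr1d1, Dbp and Tef in neutrophils, where most libraries had fewer than 30 counts of each.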
